A study of Capra hircus with 29 samples.

Results

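DNA double-strand break repair genes were followed in goat oocytes, with 7 genes chosen by their symbol: BRCA1, BRCA2, ATM, ATR, MRE11A, RAD50 and CHEK2. They are 7 of the 21343 genes in the expression table. 6 of them carried the listed symbol, and MRE11A was found under its current symbol MRE11 as gene ENSCHIG00000021669. Each symbol had 1 gene row, and 7 of 7 genes passed the limit for testing, which was more than 0.5 FPKM (fragments scaled to the exon length of a gene and to the mapped fragments of a library) in at least 4 samples.

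The oocytes were those of Ji'ning grey goats, a breed known for large litters, and were taken from a high fertility and a low fertility population at 3 follicle sizes. The litter limit was 3 kids for the high and 2 kids for the low fertility population. The groups were named HLO, HMO and HSO for oocytes of large, medium and small follicles of the high fertility goats, and LLO, LMO and LSO for those of the low fertility goats. Each group had 5 samples, apart from HSO with 4 samples (numbers 1, 3, 4 and 5), 29 samples in all. No treatment, transgene or deletion was part of any group, and the labels give no age. Each sample was a small pool of oocytes; for the high fertility goats, the methods state that all oocytes of 1 stage were put together before they were split into samples. The goats behind a sample are not recorded, so the p-values measure the spread between these samples, which may be technical in part.

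A double-strand break is sensed by the MRE11A, RAD50 and NBN complex, which holds the broken ends and activates the kinase ATM. ATR is the related kinase that answers to single-stranded DNA, and CHEK2 is the checkpoint kinase that ATM switches on. BRCA1 promotes the trimming of the ends, and BRCA2 acts at the strand exchange step of homologous recombination. In oocytes the same genes repair the programmed breaks of meiosis in fetal life and guard the genome during the long arrest that follows, and CHEK2 is known as the kinase through which damaged oocytes are lost.

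The oocyte label was checked against markers. The growth factors GDF9 and BMP15 were at 312 ± 227 and 152 ± 56.4 FPKM (mean ± SD, n = 29), and the zona protein ZP3 was at 1406 ± 1130 FPKM. Of 12 oocyte markers found, NOBOX (0.379 FPKM), NLRP5 (0.303 FPKM) and OOSP2 (0.00410 FPKM) were low on average. Of the granulosa and theca markers, AMH, AMHR2 and NR5A1 were listed at 0 in 29 of 29 samples, and FSHR and LHCGR averaged 0.0403 and 0.00211 FPKM. 3 of the 12 granulosa and theca markers found passed the limit for testing: STAR with 18.8 ± 8.17 FPKM, INHBA with 0.677 ± 1.28 FPKM (up to 5.21) and FST with 0.287 ± 0.414 FPKM (up to 1.54). The granulosa and theca markers together summed to 5.29 to 39.8 FPKM per sample, most of it from STAR. The leukocyte and blood list summed to at most 1.04 FPKM in any sample, and the stroma and endothelium list to 5.55 to 43.5 FPKM. The dividing cell list summed to 135 to 5528 FPKM, most of it from PCNA with a mean of 1973 FPKM. TOP2A averaged 12.3, MKI67 1.34 and MCM2 0.114 FPKM. The sum of FPKM per sample ran from 222697 to 490048, and 10354 to 13433 genes were above 0. Because FPKM values are relative to each library, fewer cells of a type and less RNA per cell cannot be told apart.

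The 7 genes spanned a wide range of levels (the plot of levels by group). RAD50, the ATPase of the end-sensing complex, was highest with 32.8 ± 9.78 FPKM (SD, n = 29), which placed it at or above 94.4% of all genes in the table. BRCA2 followed with 19.8 ± 7.61 FPKM. MRE11A, the nuclease of the complex, had 8.21 ± 7.46 FPKM, and BRCA1 had 3.95 ± 1.74 FPKM. The kinases were low: CHEK2 had 0.978 ± 0.319 FPKM, ATM 0.952 ± 0.4933 FPKM and ATR 0.651 ± 0.266 FPKM. None of the 7 genes was listed at 0 in any sample. CHEK2, ATM and ATR were above 0.5 FPKM in 28, 21 and 18 of 29 samples, and the other 4 genes in 29 of 29.

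The order held in nearly every sample at the top of the range. RAD50 was above BRCA2 in 28 of 29 samples, BRCA2 above MRE11A in 29 of 29, and BRCA1 above CHEK2 in 29 of 29. MRE11A and BRCA1 changed places often, with MRE11A higher in 20 of 29 samples. CHEK2 was above ATM in 17 of 29 samples, so these neighbours did not differ beyond their spread, and ATM was above ATR in 25 of 29.

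**Figure D1:**
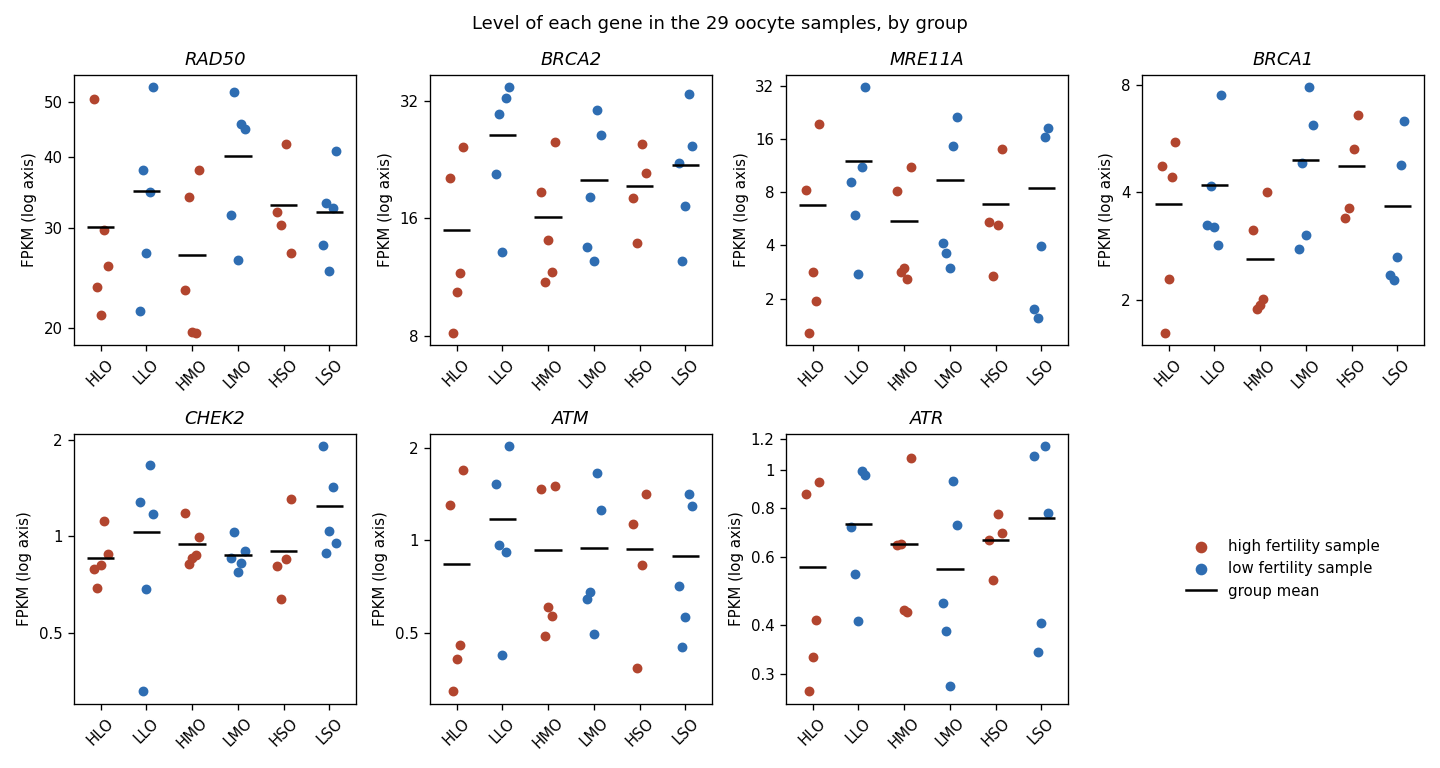
Level of each of the 7 genes in FPKM on a log axis, with 1 point per sample, red for high and blue for low fertility, and a black line at the group mean. RAD50 lies between 19.7 and 53.2 FPKM, MRE11A between 1.29 and 31.4 FPKM, and the groups overlap in every panel.

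The genes also differed in their spread over samples. On the deposited FPKM, RAD50 varied least of the 7, with a coefficient of variation of 29.8%, at or above that of only 2.19% of the 9692 genes tested over all samples. CHEK2 (32.6%), BRCA2 (38.5%), ATR (40.9%), BRCA1 (44.1%) and ATM (51.8%) came next. MRE11A varied most, at 90.8%, at or above 78.3% of tested genes. Its highest sample was 24.4 times its lowest, against 2.70 times for RAD50, the partner it binds. After median-of-ratios scaling of the libraries, MRE11A still varied most (75.2%), and the lowest coefficient of variation was that of ATR (23.0%), followed by CHEK2 (27.0%), BRCA2 (29.2%) and RAD50 (30.3%). The lowest values of BRCA1, BRCA2, ATM, ATR and MRE11A were all in HLO sample 2. The highest values of BRCA2, ATM, MRE11A and RAD50 were all in LLO sample 5.

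The partner genes of the same pathway ranged as widely as the members. NBN, the third part of the end-sensing complex, had 1.03 ± 0.455 FPKM (SD, n = 29) and was below RAD50 in 29 of 29 samples and below MRE11A in 28 of 29. RBBP8 (CtIP), which starts the trimming of ends together with the complex, had 25.2 ± 13.2 FPKM. BARD1, the partner of BRCA1, had 3.05 ± 1.72 FPKM, and BRCA1 was higher in 19 of 29 samples. A second gene row with the symbol BARD1 had 0.0210 FPKM, so the split of reads between both rows is uncertain. PALB2, which joins BRCA1 to BRCA2, had 8.35 ± 4.39 FPKM, and BRCA2 was above it in 29 of 29 samples.

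Among the checkpoint partners, CHEK1, the kinase that ATR switches on, had 20.1 ± 13.7 FPKM and was above CHEK2 in 29 of 29 samples, with a median log2 ratio of 3.04 on the log2(FPKM + 1) scale. ATRIP, the subunit that brings ATR to its site, had 0.183 ± 0.209 FPKM, and TOPBP1, an activator of ATR, had 1.56 ± 0.793 FPKM. The end-joining protein XRCC5 (Ku80) had 40.6 ± 21.5 FPKM and XRCC6 (Ku70) 14.4 ± 8.66 FPKM. PRKDC, the kinase that Ku recruits and a relative of ATM and ATR, had 0.144 ± 0.0684 FPKM and was below both ATM and ATR in 29 of 29 samples. LIG4, the ligase of the same arm, had 4.82 ± 2.89 FPKM, and PARP1, a sensor of breaks, had 7.09 ± 3.22 FPKM. TP53BP1, which protects ends from trimming, had 0.843 ± 0.382 FPKM. TP63, a transcription factor through which damaged oocytes are removed, had 0.372 ± 0.209 FPKM. H2AFX (0.237 FPKM) was listed at 0 in 20 samples, and MDC1, which reads the H2AFX mark, averaged 0.0757 FPKM. Among meiotic genes, SPO11, which makes the meiotic breaks, had 0.878 ± 0.840 FPKM, and DMC1, the meiotic recombinase, was listed at 0 in 27 of 29 samples.

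**Figure D2:**
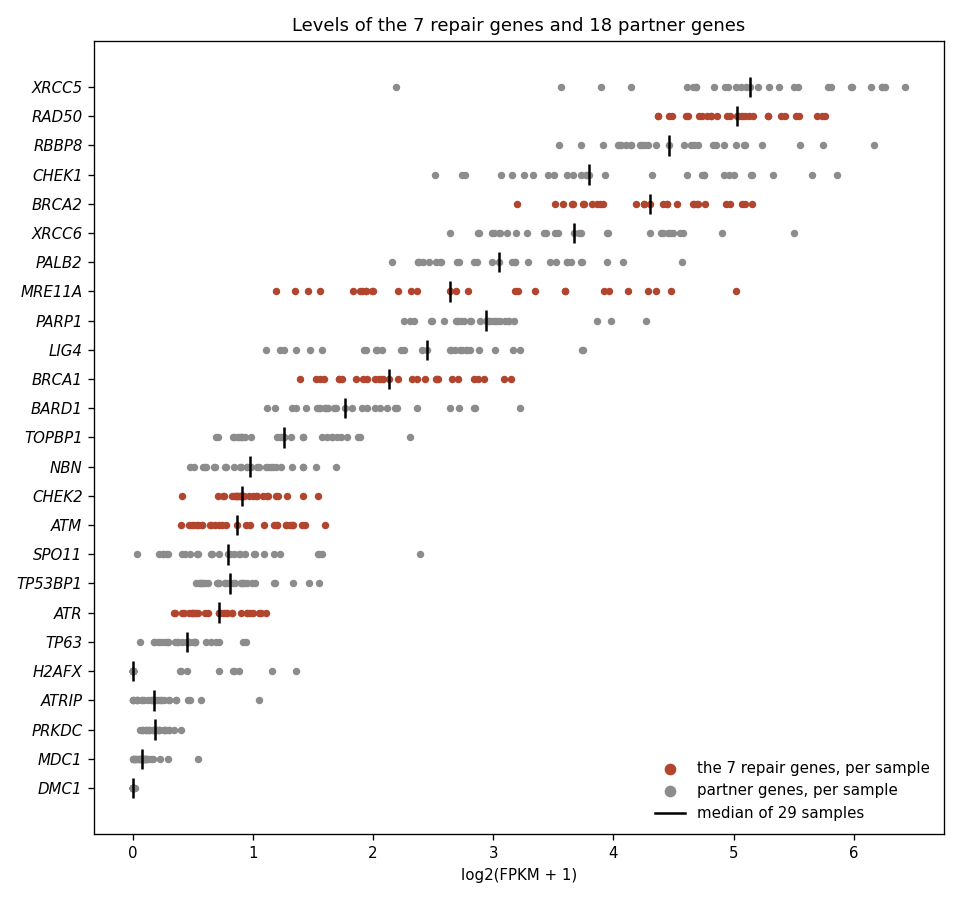
Levels of the 7 repair genes (red) and 18 partner genes (grey) on the log2(FPKM + 1) scale, with 1 point per sample and a black line at the median of 29 samples; genes are ordered by mean FPKM, from XRCC5 at the top to DMC1 at the bottom. RAD50 and BRCA2 lie among the highest genes, CHEK2, ATM and ATR among the low ones.

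The first question of the design was whether the populations differ at a given follicle size. No member differed between high and low fertility in large follicles by limma's moderated test with Benjamini-Hochberg adjustment over all 8328 genes tested. The background there was 0% of genes called after adjustment and 4.14% at an unadjusted p under 0.05, and 0 of 7 members passed either limit. BRCA2 and MRE11A had the lowest estimates.

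BRCA2 was at 20.3, 8.17, 10.4, 11.6 and 24.3 FPKM in HLO samples 1 to 5, and at 20.8, 29.6, 13.2, 32.5 and 34.6 FPKM in LLO samples 1 to 5. The low fertility group held the 3 highest values, and the groups overlapped. The difference, high minus low on the log2(FPKM + 1) scale, was -0.80 (SE 0.46, 95% confidence interval -1.79 to 0.20, adjusted p = 0.828). The exact permutation test of the same difference gave p = 0.0714, two-sided, where the smallest possible p is 0.00794.

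MRE11A was at 8.25, 1.29, 2.84, 1.94 and 19.5 FPKM in HLO samples 1 to 5, and at 9.18, 5.93, 2.75, 11.1 and 31.4 FPKM in LLO samples 1 to 5. The sample numbered 5 was highest in both groups, and the spread within a group was wider than the gap between them. The difference was -0.88 on the log2 scale (SE 0.68, 95% confidence interval -2.34 to 0.58, adjusted p = 0.828).

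The other 5 members lay closer to 0 in large follicles, between -0.26 (ATM) and -0.09 (CHEK2) on the log2 scale. All 7 estimates were negative, with a median of -0.21. The median of all genes was -0.09, with 57.6% of genes negative, so a negative sign was the more frequent one in this comparison. The samples LLO 2 and LLO 5 stand apart from the others on the second principal component. Without them, BRCA2 was at -0.56 and MRE11A at -0.50, both closer to 0 than with them, and BRCA1 and RAD50 were at 0.12 and 0.07. ATM and ATR were at -0.11 and -0.14, and CHEK2 moved away from 0, to -0.23.

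In medium follicles, BRCA1 was the member with the smallest p. BRCA1 was at 3.14, 1.88, 1.94, 2.01 and 4.01 FPKM in HMO samples 1 to 5, and at 2.78, 4.82, 3.04, 7.88 and 6.17 FPKM in LMO samples 1 to 5. 3 of 5 HMO samples were below every LMO sample, and the other 2 samples of HMO lay within the LMO range. The means were 2.60 ± 0.943 and 4.94 ± 2.15 FPKM (SD, n = 5 each). The difference was -0.68 on the log2 scale (SE 0.31, 95% confidence interval -1.35 to -0.01), with an unadjusted p of 0.0463 and an adjusted p of 0.571 by limma. The exact permutation test gave p = 0.0476, two-sided and not adjusted. In this comparison 8.67% of the 8390 genes tested had an unadjusted p under 0.05 and 0.0715% passed after adjustment, so 1 of 7 members at the unadjusted limit is near the background, and 0 of 7 passed after adjustment. With limma's array weights, which give less weight to samples far from their group, BRCA1 was at -1.03 with an adjusted p of 0.0359; 1011 genes were called under that setting, and over the alternatives its adjusted p ran from 0.0359 to 0.957.

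RAD50 was at 23.3, 34.0, 19.7, 19.7 and 38.0 FPKM in HMO samples 1 to 5, and at 31.7, 52.2, 26.4, 45.8 and 44.9 FPKM in LMO samples 1 to 5. The LMO group held the 3 highest values, and the groups overlapped. The difference was -0.57 on the log2 scale (SE 0.34, 95% confidence interval -1.30 to 0.16, adjusted p = 0.628). MRE11A was at -0.49 (-0.76 to -0.12 with 1 sample left out, and -1.55 with array weights, adjusted p = 0.0501) and BRCA2 at -0.29 (-0.45 to -0.12 with 1 sample left out), and ATM (-0.02), CHEK2 (0.05) and ATR (0.08) were close to 0. 5 of 7 estimates were negative, against 56.5% of all genes.

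In small follicles no member differed between HSO and LSO, and 0 of 7 passed the adjusted or the unadjusted limit. The background was 0.0119% of 8376 genes after adjustment and 4.41% without it. The largest estimate in size was that of BRCA1, at 0.34 (SE 0.34, 95% confidence interval -0.41 to 1.08, adjusted p = 0.890), opposite in sign to the other stages. BRCA1 was at 3.39, 3.62, 5.30 and 6.59 FPKM in HSO samples 1, 3, 4 and 5, and at 2.35, 2.28, 2.63, 4.78 and 6.32 FPKM in LSO samples 1 to 5. The 3 lowest values were in LSO, and the groups overlapped. CHEK2 was at -0.23 (SE 0.20), from 0.901 ± 0.287 FPKM in HSO (n = 4) and 1.25 ± 0.429 FPKM in LSO (n = 5). The other 5 members lay between -0.13 and 0.08, and 3 of 7 estimates were negative.

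**Figure D3:**
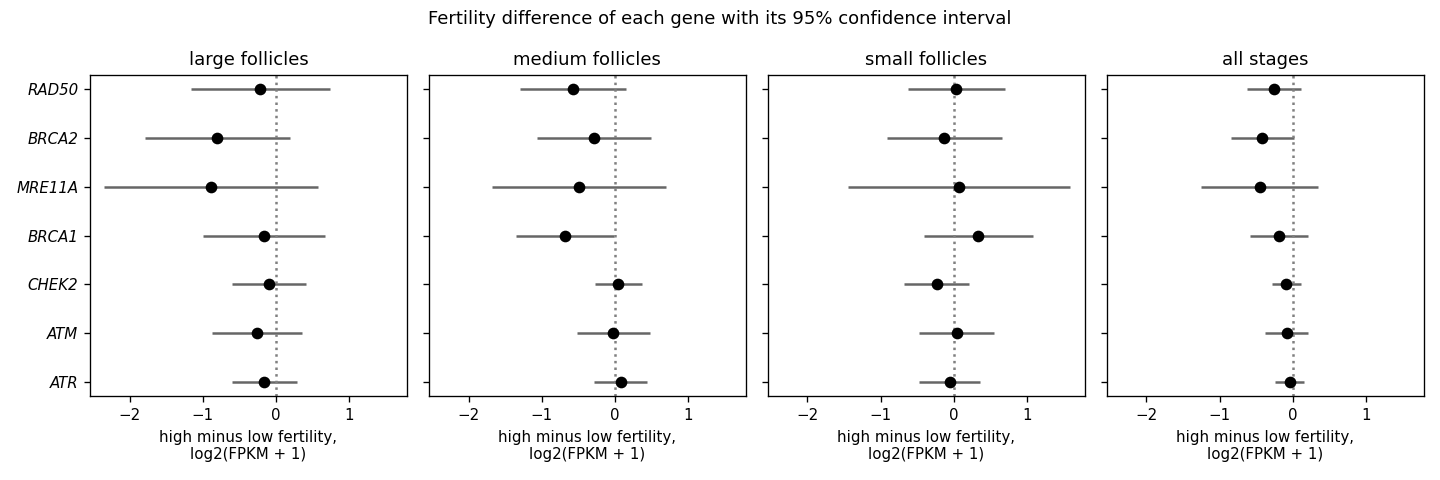
Difference of each gene between high and low fertility on the log2(FPKM + 1) scale (point) with its 95% confidence interval (line), in large, medium and small follicles and over all stages. The interval of BRCA1 in medium follicles, -1.35 to -0.01, is the only 1 of 28 that excludes 0, before any adjustment for the number of genes tested.

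Over all stages, with stage as a covariate, no member passed the test. 0 of 7 had an adjusted or unadjusted p under 0.05, and the background over 9692 genes was 0.0103% and 9.99%. BRCA2 came nearest: it was at 16.6 ± 5.83 FPKM in the 14 high fertility samples and 22.7 ± 8.07 FPKM in the 15 low fertility samples. The high fertility samples ran from 8.17 to 25.02 FPKM and the low fertility samples from 12.4 to 34.6 FPKM. The difference was -0.41 on the log2 scale (SE 0.21, 95% confidence interval -0.84 to 0.01), with an unadjusted p of 0.0572 and an adjusted p of 0.506 by limma. MRE11A was at -0.45 (SE 0.39, adjusted p = 0.720), RAD50 at -0.26 (SE 0.18), BRCA1 at -0.19 (SE 0.20), and CHEK2, ATM and ATR between -0.08 and -0.04. All 7 estimates were negative with a median of -0.19, beside a median of -0.04 and 57.2% negative among all genes. ATR turned to 0.01 when the libraries were rescaled by median-of-ratios factors. With array weights MRE11A was at -1.20 (adjusted p = 0.0405), and 691 genes were called; over the alternatives its adjusted p ran from 0.0405 to 0.917.

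The second question was whether the levels follow follicle size. No member differed between large, medium and small follicles by limma's F-test with the population as a covariate: 0 of 7 passed either limit, and the unadjusted p-values ran from 0.607 (CHEK2) to 0.981 (RAD50). The background was 0% of 9692 genes after adjustment and 1.66% without it. RAD50, for example, was at 32.5 ± 11.6, 33.6 ± 11.5 and 32.4 ± 5.85 FPKM in large, medium and small follicles (SD over 10, 10 and 9 samples). MRE11A was at 9.42 ± 9.50, 7.42 ± 6.38 and 7.75 ± 6.68 FPKM in the same order.

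The population difference was also compared between stages, by an interaction test. 0 of 7 members passed either limit, against 0% of genes after adjustment and 7.89% without it. BRCA1, whose estimate was -0.68 in medium and 0.34 in small follicles, had an unadjusted p of 0.107 and an adjusted p of 0.736, so the sign change was not larger than the spread between samples. The other unadjusted p-values lay between 0.4003 and 0.674.

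The order of the 6 groups differed from gene to gene. LLO had the highest mean of BRCA2 (26.1 ± 8.97 FPKM), ATM (1.17 ± 0.621 FPKM) and MRE11A (12.1 ± 11.3 FPKM). LMO had the highest mean of BRCA1 (4.94 FPKM) and RAD50 (40.2 ± 10.7 FPKM), and LSO that of ATR (0.753 ± 0.376 FPKM) and CHEK2 (1.25 FPKM). HMO was lowest for BRCA1, MRE11A (5.52 ± 3.88 FPKM) and RAD50 (26.9 ± 8.51 FPKM), and HLO was lowest for BRCA2 (15.0 ± 6.96 FPKM), ATM (0.837 ± 0.621 FPKM) and CHEK2 (0.858 ± 0.158 FPKM). The lowest mean of ATR was that of LMO (0.556 ± 0.269 FPKM). In all 35 pairs of neighbours in these orders, the means differed by less than 1 pooled SD. Between the ends of the orders, the means differed by more than 1 pooled SD for BRCA1 (2.34 FPKM against an SD of 1.66), BRCA2 (11.2 against 8.03), RAD50 (13.3 against 9.68) and CHEK2 (0.388 against 0.323), and by less for ATM, ATR and MRE11A. The groups were sorted by these same means first, which makes neighbours close and the ends far apart. The share of all genes with such gaps was not computed, so the gaps are a description only. The ranges of the highest and the lowest group overlapped for 7 of 7 genes.

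The remaining pathway genes were counted in 4 lists. Of homologous recombination genes 30 were tested in large follicles, and 0 passed the adjusted limit, while 1 was lower at an unadjusted p under 0.05. ABRAXAS1, a scaffold of a BRCA1 complex, was that gene, at -1.26 (adjusted p = 0.828). The end joining list had 0 of 16 and the signalling list 0 of 21 at the unadjusted limit. The medians of the homologous recombination, end joining and signalling lists were -0.17, -0.24 and -0.42, beside -0.09 for all genes. Of 17 meiotic genes, 1 was higher at the unadjusted limit, SYCE3 of the synaptonemal complex, at 1.85 (SE 0.61, adjusted p = 0.828), and their median was -0.01. Among all 8328 genes, 248 were higher and 97 lower at that limit.

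In medium follicles the lists also had 0 genes past the adjusted limit. The medians of the homologous recombination, end joining and signalling lists were 0.04, 0.20 and 0.0003 there, beside -0.29 for the members and -0.07 for all genes. At the unadjusted limit, 3 of 30 homologous recombination gene rows were higher (SWSAP1 and both rows of RPA3) and 1 was lower, 1 of 15 end joining genes was higher and 1 lower, and 1 of 20 signalling genes was higher and 1 lower. Among all 8390 genes, 427 were higher and 300 lower. Among those with a log2 difference beyond 1 were RPA3, a subunit of the single-strand binding protein, at 2.31 (adjusted p = 0.157), SWSAP1, a homologous recombination cofactor, at 1.51 (adjusted p = 0.576), and the polymerase POLM at -1.14 (adjusted p = 0.281). The RPA3 row is 1 of 2 with that symbol, so its value is uncertain. The others, named after their values were seen, were RAD54L (-0.71), PARP2 (0.71), TIMELESS (-0.90), RAD9B (0.69) and the second RPA3 row (0.95). STAR, the steroid marker named above, was at -1.04 in the same comparison (adjusted p = 0.265). The granulosa and theca list summed to 9.37 to 16.1 FPKM in HMO and to 20.8 to 39.8 FPKM in LMO, the group with more BRCA1. Most of this sum is STAR, with a mean of 18.8 FPKM beside a median sum of 19.5 FPKM over the 29 samples. The sum therefore largely repeats the STAR difference. INHBA, the other marker of that list tested here, was at -0.57 (adjusted p = 0.669), with 0.245 FPKM in HMO and 1.33 FPKM in LMO. AMH, AMHR2 and NR5A1 were listed at 0 in both groups. The part of these markers in the BRCA1 difference was not tested. In large follicles the same sum was the other way round, with 18.1 to 30.5 FPKM in HLO and 6.08 to 17.6 FPKM in LLO.

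In small follicles 1 of 30 homologous recombination genes was lower and 2 of 17 meiotic genes were higher at the unadjusted limit, with 0 of 16 and 0 of 21 in the end joining and signalling lists and 0 genes past the adjusted limit. Among all 8376 genes, 171 were higher and 198 lower. The list medians, in the same order as before, were 0.02, -0.13 and -0.06, beside 0.04 for the members and -0.01 for all genes. TEX12, of the synaptonemal complex, was at 1.04 (adjusted p = 0.880), REC114, a meiotic break factor named after its value was seen, was at 0.91, and BARD1 was at -0.68 (unadjusted p = 0.0392, adjusted p = 0.880). Over all stages, 0 list genes passed the adjusted limit. At the unadjusted limit, 2 of 31 homologous recombination genes were higher and 1 lower, 1 of 16 end joining genes was higher and 1 lower, 0 of 25 signalling genes were higher and 1 lower, and 3 of 17 meiotic genes were higher, beside 329 higher and 639 lower among all 9692 genes. Named after their values were seen, these were WRN (0.49), 1 row of RPA3 (0.47), FANCM (-0.37), NHEJ1 (0.35), RIF1 (-0.43), TIMELESS (-0.55), REC114 (0.62), SYCE3 (0.93) and HORMAD2 (0.43). Between follicle sizes 0 genes of the 4 lists passed either limit. Over all stages, 11 of the 14 partner genes tested were negative, with a median of -0.22. Among all genes 57.2% were negative, with a median of -0.04. The partner genes ran from -0.39 (RBBP8) to 0.24 (XRCC5), with 0 past the unadjusted limit.

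The levels were also compared by the number that the labels give each sample within its group (the plot of levels by sample number). The labels do not say what this number marks, and this comparison was added after the data were seen. MRE11A was highest in the sample numbered 5 in 6 of 6 groups. Its 6 values there were 19.5 (HLO), 31.4 (LLO), 11.1 (HMO), 21.2 (LMO), 14.1 (HSO) and 18.5 FPKM (LSO). The samples numbered 2 held 1.29, 5.93, 2.84, 3.62 and 1.55 FPKM, and those numbered 3 held 2.70 to 3.99 FPKM. The medians of the samples numbered 1 and 4 lay between, at 6.77 and 8.15 FPKM, but their values ranged widely. Those numbered 1 ran from 1.74 to 9.18 FPKM. Those numbered 4 were at 1.94 (HLO), 2.57 (HMO) and 5.24 FPKM (HSO), and at 11.1 (LLO), 14.6 (LMO) and 16.4 FPKM (LSO). No sample numbered 2 or 3 reached the lowest sample numbered 5. The share of all genes with such a gap, or with their highest value in number 5 in every group, was not computed.

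By limma's F-test of the sample number with the 6 groups as covariates, 5 of 7 members passed after adjustment: MRE11A (adjusted p = 0.000149), ATM (0.00148), BRCA1 (0.00687), ATR (0.0186) and BRCA2 (0.0236). RAD50 (0.264) and CHEK2 (0.220) did not. The background was high, with 50.5% of all genes called after adjustment and 58% at the unadjusted limit, so the members' share has to be read against that. BRCA2 no longer passed without HLO sample 5 (adjusted p = 0.0563), and its adjusted p ran from 8.69e-06 to 0.660 over the alternatives.

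The libraries as a whole moved with the same number in part. The median-of-ratios factor, which measures how high a typical gene stood in a library, was 1.27 to 1.35 in the samples numbered 5 and 0.682 to 0.849 in those numbered 3. The samples numbered 4 did not move together. Their factor was 0.7396 (HLO), 0.7854 (HMO) and 1.1088 (HSO), against 1.565 (LLO), 1.4422 (LMO) and 1.4138 (LSO). In number 4 the high fertility library was thus the lower one at every follicle size. The part of these libraries in the fertility differences was not tested separately. After division by the median-of-ratios factor, MRE11A was the only member that still passed the F-test (adjusted p = 0.000792). The background stayed high, with 4410 of the 9692 genes tested called, so passing does not set MRE11A apart from other genes. ATM (adjusted p = 0.0629), BRCA1 (0.201), ATR (0.627) and BRCA2 (0.660) did not. Rescaled MRE11A was still highest in number 5 in 6 of 6 groups, with 8.69 to 24.5 rescaled FPKM in number 5 against 3.51 to 4.70 in number 3. Over all alternatives, the adjusted p of MRE11A lay between 6.56e-09 and 0.0007955.

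**Figure D4:**
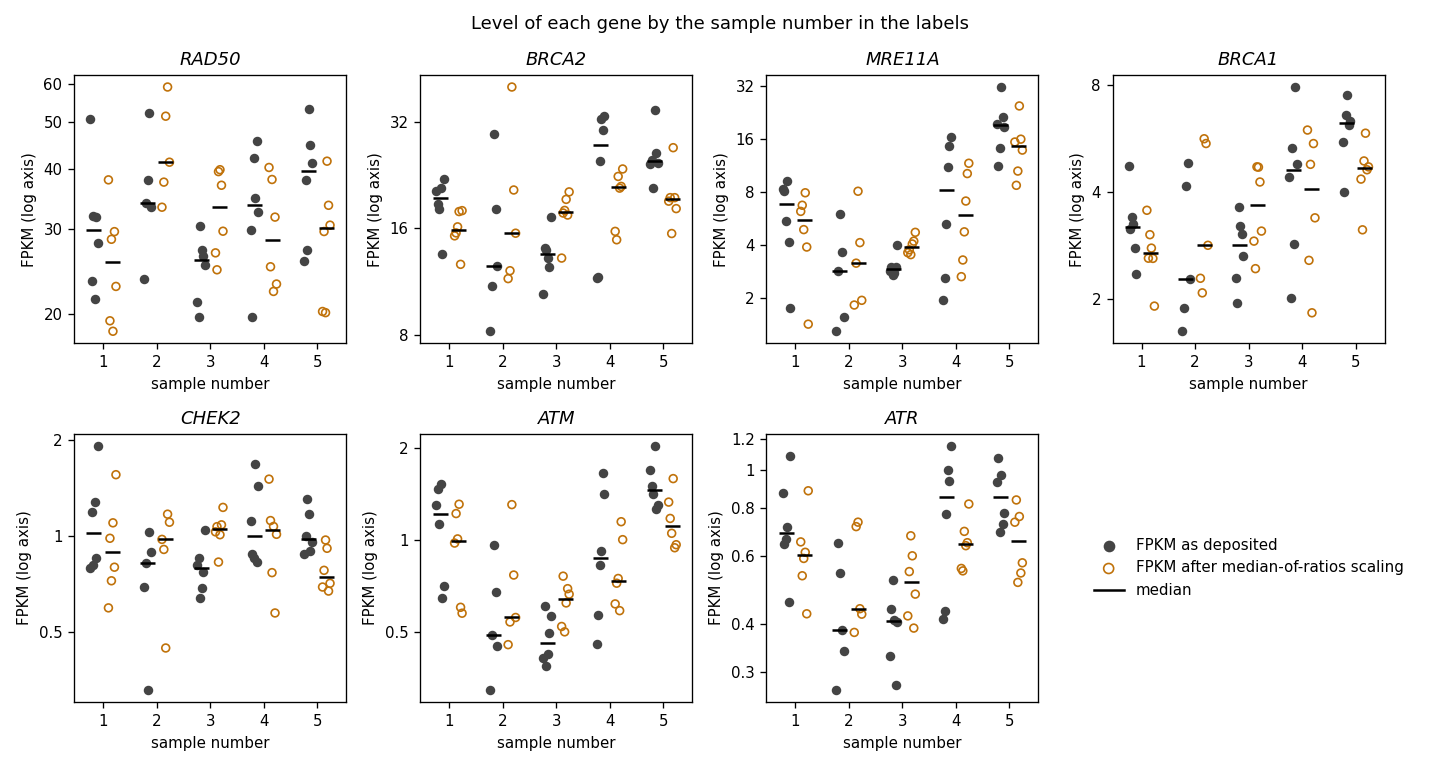
FPKM of each gene on a log axis against the sample number in the labels, as deposited (filled) and after median-of-ratios scaling (open), with 1 point per sample and a black line at the median. MRE11A in number 5 lies between 11.1 and 31.4 FPKM, above every sample numbered 2 or 3. After scaling, the lowest sample numbered 5 (8.69) is still above the highest numbered 2 (8.04).

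MRE11A and RAD50 act in 1 complex, so their ratio was followed in the same samples. MRE11A over RAD50 had a median of 0.497 in the samples numbered 5 (0.293 to 0.758), 0.0694 in those numbered 2 (0.0467 to 0.156) and 0.124 in those numbered 3 (0.0889 to 0.158). The ratio does not depend on the scaling of a library. The samples numbered 5 did not overlap with those numbered 2 or 3, and overlapped with those numbered 1 (up to 0.429) and 4 (up to 0.503). How often ratios of other genes separate in this way was not computed.

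Most pairs of members went up and down together over the 29 samples. Of 21 pairs, 17 had a Spearman correlation with an adjusted p under 0.05 (permutation test with 100000 resamples, two-sided, adjusted over 21 pairs), and 21 of 21 coefficients were above 0, with a median rho of 0.58. The closest pair was ATM and MRE11A (rho 0.88, Pearson r 0.92, permutation p = 1e-05, the smallest these resamples give). BRCA2 followed ATR (rho 0.83), MRE11A (rho 0.82) and ATM (rho 0.81) nearly as closely. The lowest coefficient was that of CHEK2 and RAD50 (rho 0.003, permutation p = 0.989). On deviations from the 6 group means, 18 pairs passed, and without the 2 samples farthest from the median of the first gene 14 did. On deviations from both group and sample number, 12 pairs passed and ATM with MRE11A was at rho 0.87. The share of all gene pairs that pass the same limit was not computed. These counts therefore describe the libraries and do not set the members apart from other genes.

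These correlations shared the level of the library. Spearman's rho with the median-of-ratios factor was 0.84 for ATR, 0.79 for MRE11A and ATM, 0.76 for BRCA2, 0.59 for CHEK2, 0.56 for BRCA1 and 0.45 for RAD50. After scaling by it, 8 of 21 pairs passed, 12 coefficients were above 0, and the median rho was 0.22. ATM with MRE11A stayed the closest pair (rho 0.82, permutation test with adjusted p = 0.0002). MRE11A with CHEK2 turned to -0.56 (permutation test with adjusted p = 0.0097), from 0.33 before. The relations that passed with the deposited values and with all 4 alternatives were BRCA1 with BRCA2, MRE11A and RAD50, BRCA2 with ATM, ATR and MRE11A, and ATM with MRE11A.

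**Figure D5:**
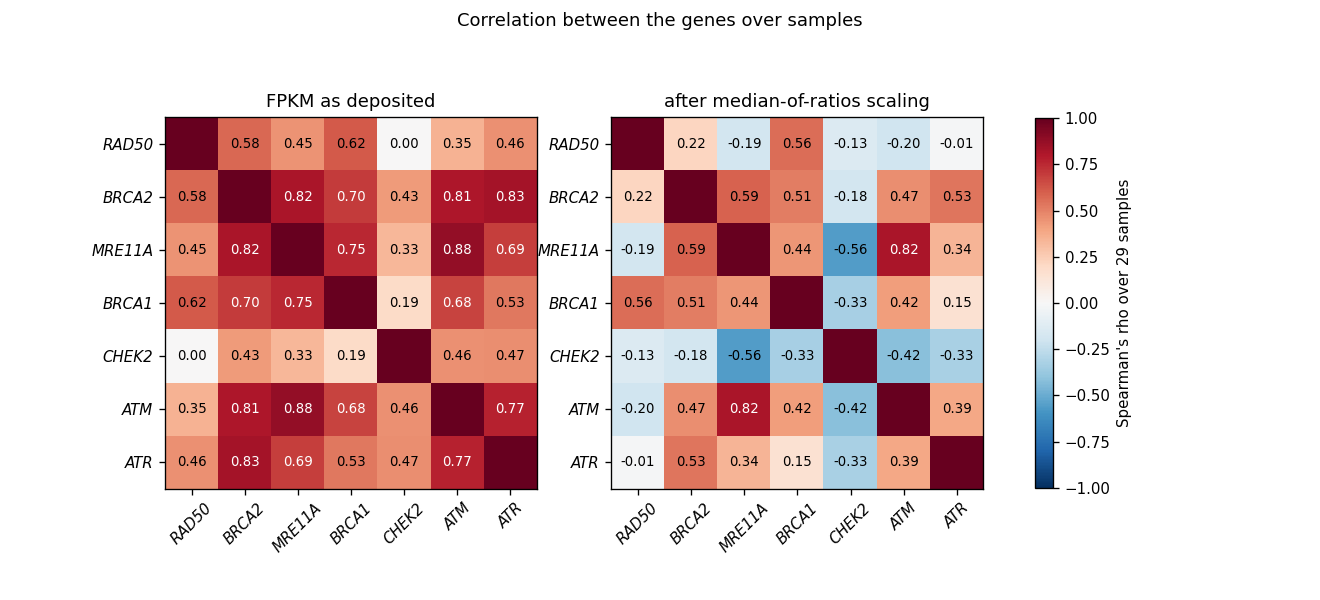
Spearman's rho between the 7 genes over 29 samples, on FPKM as deposited (left) and after median-of-ratios scaling (right), in red above and blue below 0. The 21 coefficients lie between 0.00 and 0.88 on the left and between -0.56 and 0.82 on the right, where ATM with MRE11A remains the highest.

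Among all tested genes with a symbol, those most like each member over the 29 samples were named by Spearman's rho, as a description of these libraries. Only the deposited FPKM were used here, without scaling, so a shared level of the library can enter these coefficients. BRCA2 was most like the replication factor MCM10 (0.94), the centriole gene CEP152 (0.94) and RIF1 (0.94), a gene of the end joining list. BRCA1 was most like CENPF (0.91), a kinetochore gene, CEP85 (0.90) and TXNRD1 (0.88). ATM was nearest to NEDD1 (0.93), CENPO (0.93) and CCT8 (0.93), and ATR to C20H5orf34 (0.91), NUP133 (0.91) and KBTBD8 (0.90). MRE11A was nearest to TRMT13 (0.95), PPP6R3 (0.94) and RNF14 (0.94), which shared its wide range: TRMT13 ran from 0.743 to 12.1 FPKM. RAD50 was nearest to BDP1 (0.87), ERBIN (0.86) and KMT5B (0.86), and CHEK2 to TIPIN (0.84), PAAF1 (0.80) and LOC108633410 (0.80). CENPO, C20H5orf34, RNF14 and TIPIN are each 1 of 2 rows with the same symbol, so their values are uncertain.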

How the data were processed

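Oocyte mRNA was selected with oligo(dT) beads and sequenced. After alignment to a goat genome and removal of duplicates, the authors computed FPKM with Cufflinks from uniquely matched reads and Ensembl gene models, and deposited those values; aligner and build are not given in the sources used here. No counts were used, so depth enters no interval. Columns were matched to samples by name, and 1 column that matched no sample was left out. No pair of samples was identical.

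log2(FPKM + 1) was tested with limma 3.58.1 (R 4.3.3, moderated test with trend) on every gene that exceeded 0.5 FPKM in 4 or more compared samples, with Benjamini-Hochberg adjustment over all genes and a limit of 0.05. Correlations and exact permutation tests were computed in R and Python 3.11.15. Members, lists, markers and tests were chosen with earlier results of these data known. Named are the 7 members, 18 partners, list genes past the adjusted limit or beyond 1 on the log2 scale at an unadjusted p under 0.05, and the 3 genes most like each member. Recovery was checked on simulated data with 200 genes changed by 2 (log2), drawn from genes with a mean log2(FPKM + 1) above 3. Of the members, BRCA2 and RAD50 had such means and the others did not, so the rates do not cover the others. Values were redrawn independently for each gene and sample, so any likeness of same-numbered samples was left out. In large follicles 32.5% were called (8570 genes). In medium follicles 63% were called (8485 genes), and in small follicles 57% (8592 genes). Over all stages 96.5% were called (9600 genes), between stages 91% (9547 genes) and for the sample number 68% (9562 genes). Recovery of smaller differences, such as the -0.88 of MRE11A in large follicles, was not tested, nor was recovery by gene level. Alternatives were another pseudocount (0.1), no filter or 1 FPKM, median-of-ratios scaling, array weights, a replicate block, 1 fit of 6 group means and leaving out each sample. Some items covered by this rule are not reported here.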

Additional observations from a re-analysis of the deposited data

How the results depend on the processing

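No member passed the adjusted limit in a fertility comparison under any alternative, apart from BRCA1 in medium follicles (-1.03) and MRE11A over all stages (-1.20) with array weights, 1 member in each. Genes called in large follicles were 0, 2 with array weights, 1 with the replicate block and 0 to 1 when a sample was left out. In medium follicles 6 were called, 0 with no filter, 13 with median-of-ratios scaling, 1011 with array weights, 127 with the block, 3 in 1 fit of 6 group means and 0 to 160 with a sample left out (160 without HMO sample 2). In small follicles 1 was called, 2 with a pseudocount of 0.1, 0 with the block or 1 fit, and 0 to 2 with a sample left out. Over all stages 1 was called, 0 with no filter, median-of-ratios scaling or without LLO samples 2 and 5, 691 with array weights and 0 to 2 with a sample left out. The interaction called 0, 2 with median-of-ratios scaling, 231 with array weights, 70 with the block and 0 to 59 with a sample left out (59 without HMO sample 2). The sample number called 4890 genes and 5 members, 7704 genes with array weights and 1 member with median-of-ratios scaling. 8 of 21 correlations passed after that scaling, against 17. The cause of these moves was not tested.

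Signs that turned all belonged to uncalled differences. With median-of-ratios scaling, CHEK2 in large (0.0305) and ATM in medium follicles (0.0301) and ATR over all stages (0.00547) turned. With array weights, ATR in medium (-0.14) and MRE11A in small follicles (-0.35) turned. Without LLO samples 2 and 5, BRCA1 (0.12) and RAD50 (0.0712) in large follicles turned. With the replicate block, ATM (-0.0464) and MRE11A (-0.26) in small follicles turned. With 1 sample left out, the ranges that crossed 0 were -0.29 to 0.0373 (BRCA1, large), -0.23 to 0.0219 (CHEK2, large), -0.12 to 0.10 (ATM, medium), -0.00216 to 0.17 (ATR, medium), and in small follicles -0.0748 to 0.19 (ATM), -0.30 to 0.47 (MRE11A), -0.0840 to 0.13 (RAD50), -0.30 to 0.0372 (BRCA2) and -0.14 to 0.0285 (ATR). Same-numbered samples of the high and low group correlated between -0.48 and 0.71 in their deviations, negative for number 4 in all 3 stages. 7 of 14 samples correlated best with their own number, and 50.5% of all genes differed with the number, so same-numbered samples were alike in part. The labels do not say what the number marks, and the main fertility fits left it out. With the block, no member passed the adjusted limit. By limma, BRCA2 (unadjusted p = 0.0137, adjusted 0.242) and MRE11A (0.0389, adjusted 0.311) over all stages then came under an unadjusted 0.05. BRCA1 did so in limma's interaction test (0.0355, adjusted 0.311). FPKM keep no depth, so small differences of CHEK2, ATM and ATR, near 1 FPKM, are poorly resolved.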
